A study of Mus musculus with 8 samples.

Results

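The transcripts of 8 mouse genes of polyamine metabolism were followed in a pre-B cell line that carried a miR-15 family sponge or a scrambled sponge, with interleukin 7 (IL-7) or after its withdrawal. The genes were Odc1, Amd1, Srm, Sms, Azin1, Oaz1, Oaz2 and Sat1, chosen by name from general knowledge of the pathway and found through the gene name that the array's design gives each probe. Under their own names 6 of the 8 were found. The 2 probes of Oaz2 are named as its pseudogene in the design but carry an accession that RefSeq gives to Oaz2, and 2 probes that list accessions of both Amd1 and Amd2 are named Amd2, so that transcripts of these near-identical genes cannot be told apart and are written Amd1/Amd2. In all, 19 of the array's 55681 probes stood for the 8 genes, which are 8 of the 21320 genes or annotated features tested. All 8 passed the filter on dim probes, and the probe that represented each of them was well above background on all 8 arrays.

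Polyamines are small, positively charged molecules that bind RNA and DNA, and dividing cells need a steady supply of them. Odc1 (ornithine decarboxylase) makes putrescine from ornithine, Amd1 (S-adenosylmethionine decarboxylase) makes the donor of the aminopropyl group, and Srm (spermidine synthase) and Sms (spermine synthase) use that donor to make spermidine and then spermine. The antizymes Oaz1 and Oaz2 bind the Odc1 protein and send it to the proteasome, Azin1 (antizyme inhibitor) binds the antizymes in its place, and Sat1 (spermidine/spermine acetyltransferase) acetylates spermidine and spermine for export or breakdown. Odc1 is a textbook target of the transcription factor Myc.

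The line was wk3, pre-B cells of a mouse with the genotype SLP-65-/- in all groups. SLP-65, encoded by Blnk, is an adaptor protein of pre-B cell receptor signalling. They had been transduced with a retroviral vector, selected with puromycin, and grown in IL-7, the cytokine that keeps B cell precursors dividing. Sponges are decoy RNAs whose repeated sites for a microRNA family draw it away from its other targets. Cells with the miR-15 sponge and cells with the scrambled sponge were each measured 36 h after IL-7 was taken away and in excess IL-7, which makes 4 groups. Each held 2 arrays, from separate experiments with independently generated clones, and their number limits the precision of every value. RNA from whole cultures was measured, so fewer cells that express a gene and less RNA of it per cell cannot be told apart.

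On the 8 arrays, 50.6% to 56.6% of 59305 non-control spots were well above background and 0 were saturated. The arrays of scrambled cells with IL-7 were the least alike: 1168 genes lay over 1 log2 unit apart, against 193 to 519 in the other groups. Replicate 1 of that group had 277 spots flagged as outliers, against 128 to 149 on the other arrays. The pre-B cell markers Pax5, Vpreb1 and Igll1 were well above background on every array. The summed signals of the NK cell, erythroid and fibroblast markers were at most 0.855, 0.298 and 0.172 times the array's 75th percentile. The summed signal of 6 myeloid markers, in the same unit, was 17.8 and 18.5 in sponge cells and 27.2 and 27.5 in scrambled cells without IL-7, against 14.0 and 18.2 in sponge cells and 16.1 and 21.4 in scrambled cells with IL-7. Itgam made up most of this sum. Itgam, Csf1r, Adgre1 and Elane were well above background on all 8 arrays, Mpo on 5 and Lyz2 on 2. The sum of 5 T cell markers lay between 13.5 and 19.6, most of it Lck. Lck, Cd3e and Cd4 were well above background on all 8 arrays, with log2 levels of 0.81 to 1.30 for Cd3e and 1.06 to 1.60 for Cd4, and Cd3g on none. The part of these markers in the results was not tested. Blnk had log2 levels of 7.66 to 7.69 in sponge cells and 8.19 to 8.24 in scrambled cells without IL-7. With IL-7 its levels were 7.16 in sponge cells and 7.42 to 7.56 in scrambled cells. Whether its probe lies in the deleted part of the gene is not given in the sources used here, so these values check nothing about the genotype.

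The sponge was designed against miR-15a, miR-15b, miR-16, miR-195, miR-497 and miR-322. The mature sequences, from RefSeq on GRCm38.p6, are shown because their shared seed (bases 2 to 8, in capitals) is what unites the family. All 6 carry the same seed. The first listed position is printed for each name, and any further genomic copy is left out.
miR-15a-5p (chr14:61632075-61632096, minus strand): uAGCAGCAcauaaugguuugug
miR-15b-5p (chr3:69009775-69009796, plus strand): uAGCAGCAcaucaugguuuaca
miR-16-5p (chr3:69009918-69009939, plus strand): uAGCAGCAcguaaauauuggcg
miR-195a-5p (chr11:70235062-70235082, plus strand): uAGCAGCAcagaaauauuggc
miR-497a-5p (chr11:70234730-70234751, plus strand): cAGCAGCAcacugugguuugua
miR-322-5p (chrX:53054306-53054327, minus strand): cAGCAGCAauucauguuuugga

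Each level was read by hybridisation to 60-base probes, of which 4 are shown as the array files give them, with mm9 positions. They are the Odc1 and Srm probes of largest sponge effect without IL-7, the Amd1/Amd2 probe whose calls differed from those of its partner, and an Oaz2 probe whose 60 bases are spread over 907 bases of the genome.
Odc1 (chr12:17554799-17554858, plus strand): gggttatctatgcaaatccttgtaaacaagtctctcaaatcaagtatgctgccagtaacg
Srm (chr4:147968254-147968313, plus strand): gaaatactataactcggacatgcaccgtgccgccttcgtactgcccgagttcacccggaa
Amd1/Amd2 (chr10:40009136-40009195, minus strand): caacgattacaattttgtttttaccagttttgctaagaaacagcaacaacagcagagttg
Oaz2 (chr9:65535779-65536685, plus strand): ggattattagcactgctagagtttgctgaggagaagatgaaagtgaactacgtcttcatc
The Srm probe was 55% G and C and the Amd1/Amd2 probe 35%.

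Levels are given as log2 of the processed signal relative to the array's 75th percentile, for the probe of highest mean of each gene. A level compares arrays and not genes, because probes differ in how well they bind. In the sentences on levels, 2 values joined by "and" are the 2 arrays of a group.

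Odc1, the first enzyme of synthesis, had levels of 3.99 and 3.86 in sponge cells and 3.22 and 3.18 in scrambled cells without IL-7. With IL-7 the levels were 3.80 and 3.85 in sponge cells and 3.19 and 3.40 in scrambled cells. The 4 sponge arrays lay above the 4 scrambled arrays whether or not IL-7 was present, and the 2 scrambled groups overlapped. In this order, the sponge arrays without IL-7 lay just above those with IL-7, and that difference did not pass the test given below.

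Amd1/Amd2, the source of the aminopropyl donor, had levels of 3.67 and 3.29 in sponge cells and 3.14 and 3.02 in scrambled cells without IL-7. With IL-7 it had 4.14 and 4.18 in sponge cells and 3.06 and 3.80 in scrambled cells. The scrambled arrays with IL-7 were 0.74 apart, the largest gap between replicates of any of the 8 genes, and overlapped both groups without IL-7. The sponge arrays with IL-7 were the highest of the 8.

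Srm, which makes spermidine, had levels of 0.30 and 0.45 in sponge cells and -0.71 and -0.44 in scrambled cells without IL-7. With IL-7 it had 1.10 and 1.13 in sponge cells and 0.61 and 0.63 in scrambled cells. The 4 groups did not overlap: sponge cells with IL-7 were highest, then scrambled cells with IL-7, then sponge cells without IL-7, and scrambled cells without IL-7 lowest. The group means spanned 1.69, the widest range among the 8 genes.

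Sms, which makes spermine, had levels of 3.56 and 3.48 in sponge cells and 3.21 and 3.27 in scrambled cells without IL-7. With IL-7 it had 3.83 and 3.87 in sponge cells and 3.71 and 3.76 in scrambled cells. The order of the groups was that of Srm, again with no overlap, over a narrower range of 0.61.

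Azin1, which spares Odc1 protein from the antizymes, had levels of 4.17 and 3.97 in sponge cells and 3.14 and 3.00 in scrambled cells without IL-7. With IL-7 it had 4.35 and 4.47 in sponge cells and 4.15 and 4.06 in scrambled cells. Scrambled cells without IL-7 stood apart below all others, and sponge cells without IL-7 overlapped scrambled cells with IL-7.

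The antizymes varied least. Oaz1 had levels of 7.81 and 7.82 in sponge cells and 7.70 and 7.74 in scrambled cells without IL-7, against 7.89 and 7.97 in sponge cells and 7.87 and 7.93 in scrambled cells with IL-7. Its group means spanned 0.21. Oaz2 had 5.66 and 5.45 in sponge cells and 5.61 and 5.62 in scrambled cells without IL-7, against 5.49 and 5.53 in sponge cells and 5.49 and 5.65 in scrambled cells with IL-7. Its group means spanned 0.10, less than the largest gap between replicates of 0.20, so its groups have no order.

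Sat1, the catabolic enzyme, ran the other way from Srm. It had levels of 1.71 and 1.59 in sponge cells and 2.32 and 2.43 in scrambled cells without IL-7, against 1.15 and 1.28 in sponge cells and 1.52 and 1.59 in scrambled cells with IL-7. Scrambled cells without IL-7 were highest and sponge cells with IL-7 lowest, while the 2 middle groups overlapped. The summed myeloid and T cell markers given above were also highest in scrambled cells without IL-7, as were Itgam and Lck, which made up most of the sums. Cd3e, Cd4, Elane, Adgre1 and Lyz2 were lower there than in scrambled cells with IL-7, and Csf1r and Mpo overlapped between these 2 groups. The part of any marker in the level of Sat1 was not tested. Over the 8 arrays, which share the 4 groups, Pearson's r of Srm was -0.978 with Sat1, 0.967 with Sms and 0.95 with Azin1, as a description only.

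**Figure D1:**
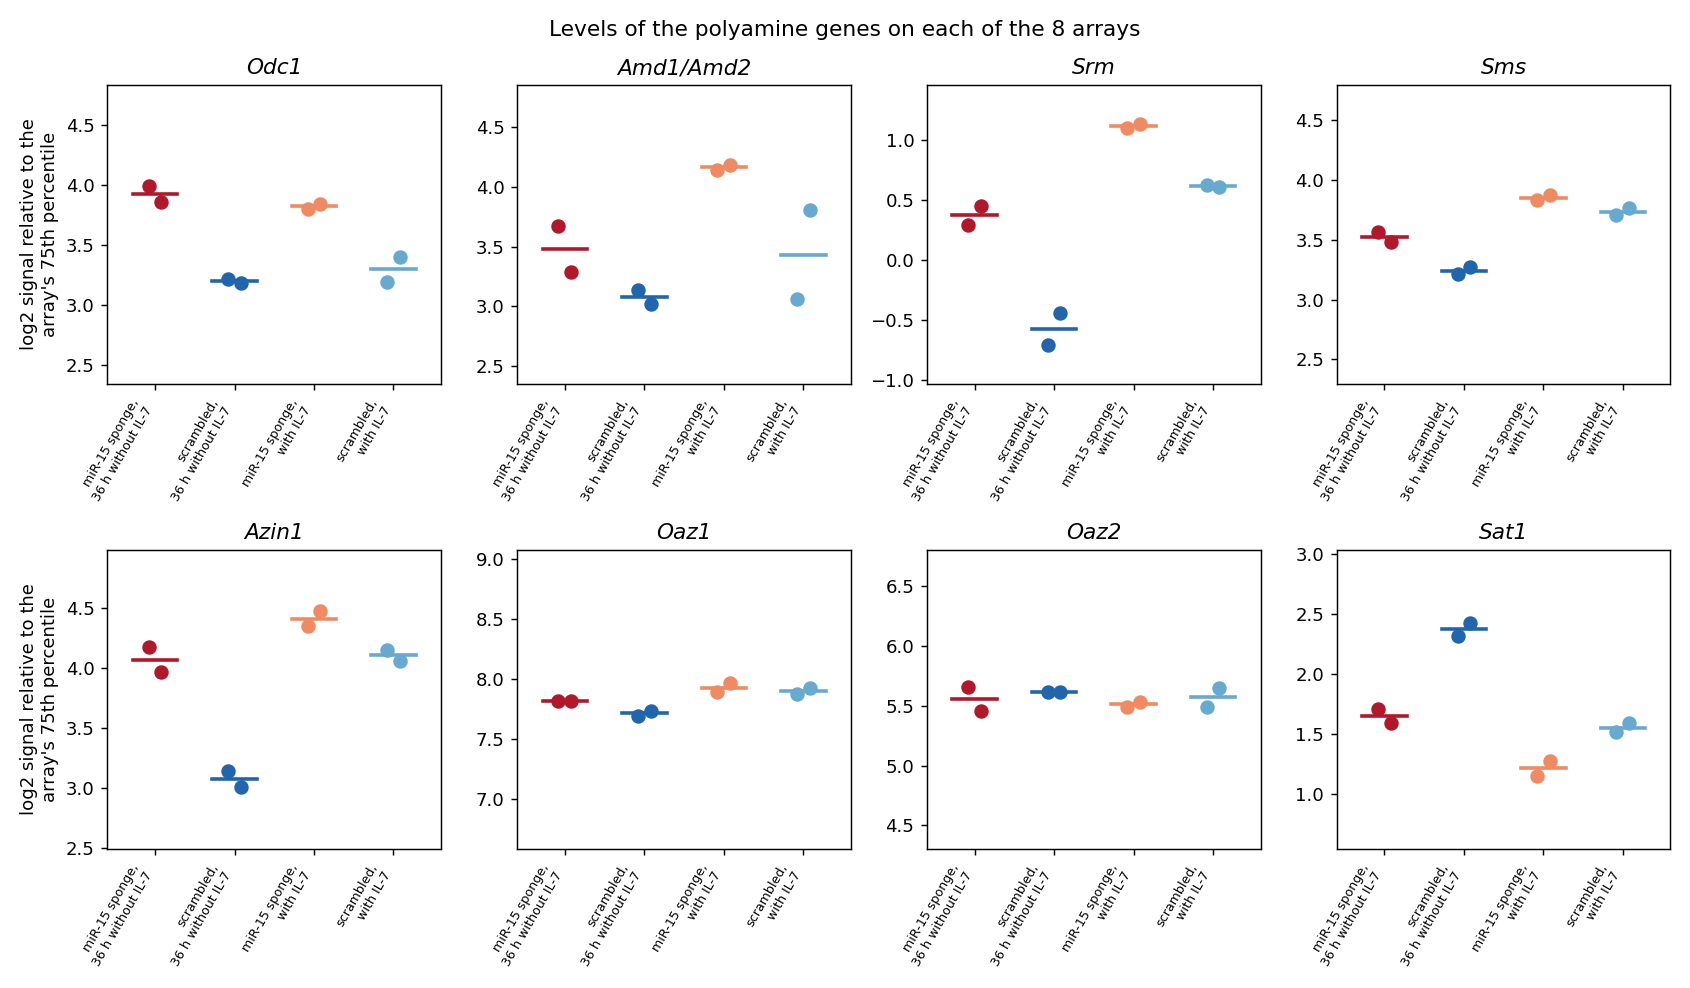
Log2 level of each polyamine gene (vertical axis, relative to the array's 75th percentile, every panel 2.5 log2 units tall) on the 2 arrays of each group (points, with the group mean as a line). Scrambled cells without IL-7 were lowest for Srm, Sms and Azin1 and highest for Sat1, and the sponge arrays lay above the scrambled arrays for Odc1.

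The first comparison asks what 36 h without IL-7, used in the study to induce differentiation, did to the genes. In sponge cells Srm and Sms fell and Sat1 rose. In scrambled cells the same 3 genes moved in the same directions and Azin1 fell as well. The transcript of Odc1 did not pass the test in either cell population. In sponge cells 3 of the 8 genes were called at an adjusted p under 0.05 (limma, Benjamini-Hochberg over all 21320 genes), where 23.2% of all genes were. Of these, 1 was higher and 2 lower, where 7.92% of all genes were higher and 15.2% lower. In scrambled cells 4 of 8 were called, a share close to the 48.1% of all genes. Of these, 1 was higher and 3 lower, where 20.7% of all genes were higher and 27.4% lower. The arrays with and without IL-7 did not overlap for 7 of the 8 genes in sponge cells, where they did not for 66.0% of all genes. In scrambled cells they did not overlap for 5 of the 8, where they did not for 15995 of 21317 genes.

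Srm fell by 0.74 ± 0.11 on the log2 scale (standard error) in sponge cells, 1.67-fold (limma, adjusted p = 0.00813). In scrambled cells it fell by 1.19 ± 0.11, 2.29-fold (limma, adjusted p = 0.000604). Sms fell by 0.33 ± 0.07 in sponge cells (adjusted p = 0.0253) and by 0.49 ± 0.07 in scrambled cells (adjusted p = 0.00268). The transcripts of both aminopropyl transferases were lower without IL-7 in both populations.

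Azin1 fell by 1.04 ± 0.10 in scrambled cells, 2.05-fold (limma, adjusted p = 0.00077). In sponge cells its difference was -0.34 ± 0.10 and did not pass the test (adjusted p = 0.0666). Sat1 rose by 0.43 ± 0.09 in sponge cells, 1.35-fold (adjusted p = 0.0211), and by 0.82 ± 0.09 in scrambled cells, 1.77-fold (adjusted p = 0.000963). These 2 genes act on opposite sides of the pool, Azin1 by keeping Odc1 protein and Sat1 by removing spermidine and spermine.

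Odc1 differed by 0.10 in sponge cells (95% confidence interval -0.14 to 0.34, limma, adjusted p = 0.496) and by -0.10 in scrambled cells (-0.34 to 0.14, adjusted p = 0.444). The intervals leave out a change of the size seen for Srm in scrambled cells. Amd1/Amd2 differed by -0.68 in sponge cells (-1.31 to -0.05, adjusted p = 0.112) and by -0.35 in scrambled cells (-0.98 to 0.28, adjusted p = 0.3). Its intervals were the widest of the 8 genes, and it was called in scrambled cells without scrambled with IL-7 replicate 1 (-0.72, adjusted p = 0.0253) and in sponge cells without either scrambled array with IL-7 (-0.68, adjusted p = 0.0284). Oaz1 differed by -0.11 (adjusted p = 0.298) and -0.18 (adjusted p = 0.0719) in sponge and scrambled cells, and Oaz2 by 0.04 in both (adjusted p = 0.799 and 0.728).

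**Figure D2:**
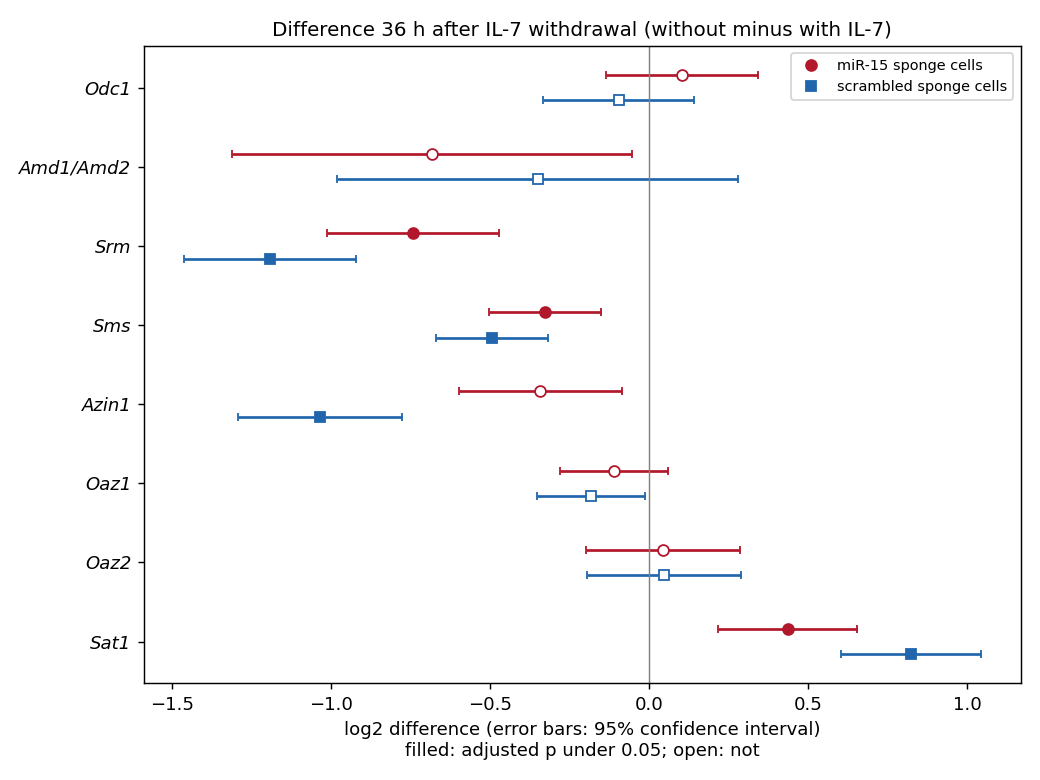
Log2 difference without minus with IL-7 (horizontal axis, with 95% confidence intervals) for each gene in miR-15 sponge cells (circles) and scrambled cells (squares), filled where the adjusted p was under 0.05. Srm and Sms were lower and Sat1 higher without IL-7 in both, and Odc1 lay at 0.10 and -0.10.

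The calls of Srm, Sms, Azin1 and Sat1 in scrambled cells held under every alternative and with any 1 array left out. In sponge cells the calls of Sms and Sat1 did not: Sat1 was lost when any of the 4 sponge arrays was left out (adjusted p 0.0607 to 0.098), Sms when any but the scrambled arrays with IL-7 was (0.0524 to 0.126), and Srm without sponge with IL-7 replicate 2 (0.0524). The count of 3 in sponge cells thus became 0 without that array and 1 without any of the other sponge arrays.

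The second comparison asks what holding the miR-15 family did. Without IL-7, Odc1, Srm, Sms and Azin1 were higher and Sat1 lower in sponge cells than in scrambled cells. That is 5 of 8 genes called, where 32.1% of all genes were, with 4 higher and 1 lower, where 16.8% of all genes were higher and 15.3% lower. The sponge and scrambled arrays did not overlap for 7 of the 8 genes without IL-7, where they did not for 72.7% of all genes, and for 6 of 8 with IL-7, where they did not for 50.6%. With IL-7, 0 of 8 were called by limma, where 1.13% of all genes were. Of the 8, 5 had an unadjusted limma p under 0.05. Such genes were not counted over the whole array, so this count has nothing to be compared with and nothing is read from it. Averaged over both conditions, 5 of 8 were called, where 31.7% of all genes were, again 4 higher and 1 lower, where 17.0% of all genes were higher and 14.7% lower.

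Without IL-7, Odc1 was 1.66-fold higher in sponge cells (log2 0.73 ± 0.10, limma, adjusted p = 0.0035). Srm was 1.93-fold higher (0.95 ± 0.11, adjusted p = 0.00226) and Azin1 2.00-fold higher (1.00 ± 0.10, adjusted p = 0.00173). Sms was 1.22-fold higher (0.28 ± 0.07, adjusted p = 0.0303), and its call was lost when any array other than those of scrambled cells with IL-7 was left out (adjusted p 0.0524 to 0.144). Sat1 was 1.65-fold lower (-0.73 ± 0.09, adjusted p = 0.00267). Amd1/Amd2 differed by 0.40 ± 0.26 and was not called (adjusted p = 0.29). Odc1, Srm, Sms and Azin1 act towards making polyamines, and Sat1 towards removing them.

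With IL-7, the differences had the same signs and were not called. Odc1 differed by 0.53 (95% confidence interval 0.29 to 0.77, limma, adjusted p = 0.0734), Srm by 0.50 (0.23 to 0.77, adjusted p = 0.104) and Sat1 by -0.34 (-0.56 to -0.12, adjusted p = 0.138). Amd1/Amd2 differed by 0.73 (0.10 to 1.36, adjusted p = 0.209) and Azin1 by 0.31 (0.05 to 0.56, adjusted p = 0.201). Without scrambled with IL-7 replicate 2, Odc1 (0.63, adjusted p = 0.0319) and Amd1/Amd2 (1.10, adjusted p = 0.0346) passed. With a spread that depends on level and is robust to outliers, Odc1 (adjusted p = 0.00885) and Srm (adjusted p = 0.0296) did. Odc1 also passed with probes above background on all 8 arrays only (adjusted p = 0.0487), and Srm with normexp background correction (adjusted p = 0.0495).

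Averaged over both conditions, the sponge cells had 1.55-fold more Odc1 signal (log2 0.63 ± 0.07, limma, adjusted p = 0.00239). Srm was 0.72 ± 0.08 higher (adjusted p = 0.00234), Azin1 0.65 ± 0.07 (adjusted p = 0.00256) and Sms 0.20 ± 0.05 (adjusted p = 0.031), and Sat1 was 1.45-fold lower (-0.53 ± 0.06, adjusted p = 0.00276). The Sms call was lost with 7 of the 8 arrays left out in turn, all but scrambled with IL-7 replicate 2, its adjusted p then reaching 0.104. Amd1/Amd2 differed by 0.57 ± 0.18 (adjusted p = 0.0613), or by 0.75 without scrambled with IL-7 replicate 2 (adjusted p = 0.00901), Oaz1 by 0.06 ± 0.05 (adjusted p = 0.363) and Oaz2 by -0.06 ± 0.07 (adjusted p = 0.536).

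**Figure D3:**
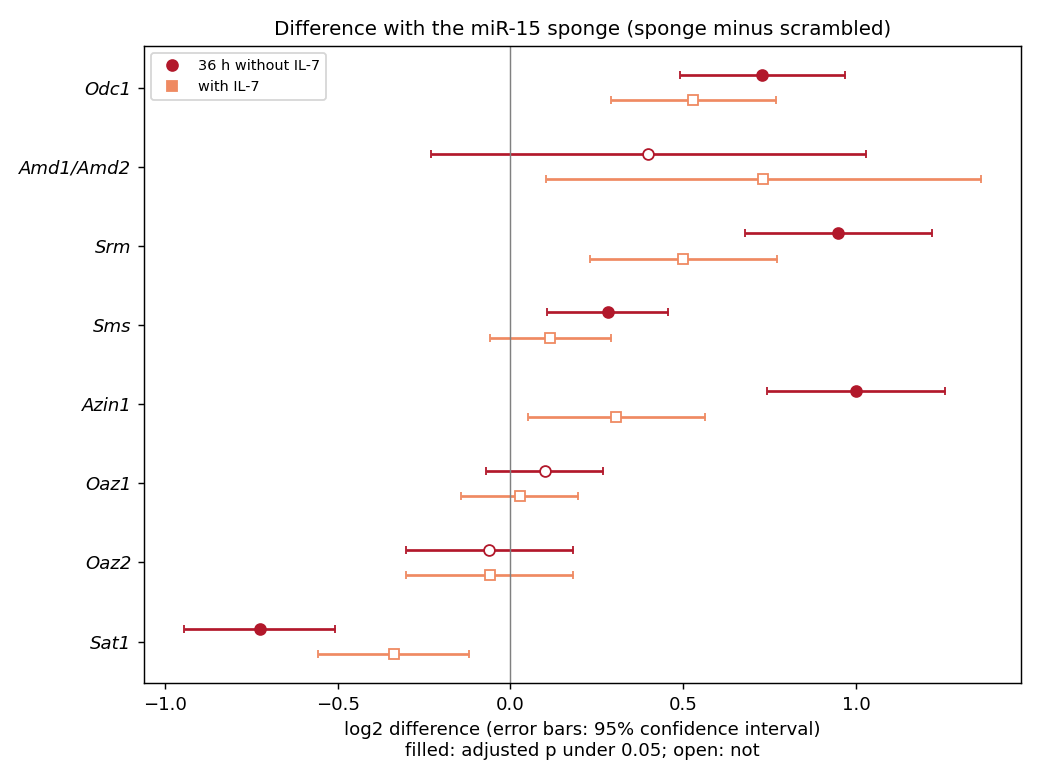
Log2 difference of miR-15 sponge minus scrambled cells (horizontal axis, with 95% confidence intervals) for each gene 36 h without IL-7 (circles) and with IL-7 (squares), filled where the adjusted p was under 0.05. Odc1, Srm, Sms and Azin1 were higher and Sat1 lower without IL-7, and no gene was called with IL-7.

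The third comparison asks whether withdrawal acted differently in the 2 cell populations. Of the 8 genes 0 were called by limma, where 5.27% of all genes were. Of the 8, 3 had an unadjusted limma p under 0.05. Such genes were not counted over the whole array, so nothing is read from this count. Azin1 came nearest: its fall was 0.69 ± 0.15 smaller in sponge cells (adjusted p = 0.0572), and the call was made under 5 of 11 alternatives and under none of the 8 that left out an array (adjusted p 0.0653 to 0.199). Srm differed by 0.45 ± 0.16 (adjusted p = 0.161) and Sat1 by -0.39 ± 0.13 (adjusted p = 0.142). For Odc1 the difference was 0.20 (95% confidence interval -0.14 to 0.54, adjusted p = 0.433). The withdrawal effects and the sponge effects share arrays, so their values stand side by side here and are not independent of each other.

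Most genes had several probes, and where a gene had more than 1 they mostly moved together. All 4 Odc1 probes were called higher in sponge cells without IL-7, with log2 differences of 0.64 to 0.94, and none was called for withdrawal. The 2 Srm probes had differences of -0.74 in sponge cells and of -1.19 and -1.22 in scrambled cells after withdrawal. The 3 Sms probes fell by 0.49 to 0.78 in scrambled cells. All 3 were called higher in sponge cells without IL-7, by 0.28 to 0.56, and on average over both conditions, by 0.20 to 0.38. The probe that represents Sms had the smallest of these differences, and the fits with an array left out used that probe only. Of 3 Azin1 probes, 2 fell in scrambled cells, by 1.04 and 1.26, and the third, with levels of -3.54 to -1.95 the dimmest, differed by -0.51 ± 0.33 (adjusted p = 0.251). One of the 2 stronger Azin1 probes was also called lower in sponge cells (-0.55, limma, adjusted p = 0.0155) and differed between the populations by 0.71 (adjusted p = 0.0496). Some probes of a gene overlap on the transcript and are not separate evidence. The Odc1 probes other than the one shown above all overlap one another, by 22 to 55 bases, and the Oaz1 pair overlaps by 60.

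The 2 probes of Amd1/Amd2 and of Oaz2 did not match in calls or sign. The Amd1/Amd2 probe shown above was called lower after withdrawal in scrambled cells (-0.63 ± 0.14, limma, adjusted p = 0.0151) and higher with the sponge on average (0.41 ± 0.10, adjusted p = 0.0311). Its brighter partner, which represents the gene elsewhere in the text, was not called in either. The mean of both was called lower after withdrawal in sponge cells (-0.54, adjusted p = 0.0145) and in scrambled cells (-0.55, adjusted p = 0.00561). It was also called higher with the sponge without IL-7 (0.48, adjusted p = 0.0139) and on average (0.48, adjusted p = 0.00482). The Oaz2 probe shown above differed by -0.23 after withdrawal in scrambled cells and its partner by 0.04, and neither was called.

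**Figure D4:**
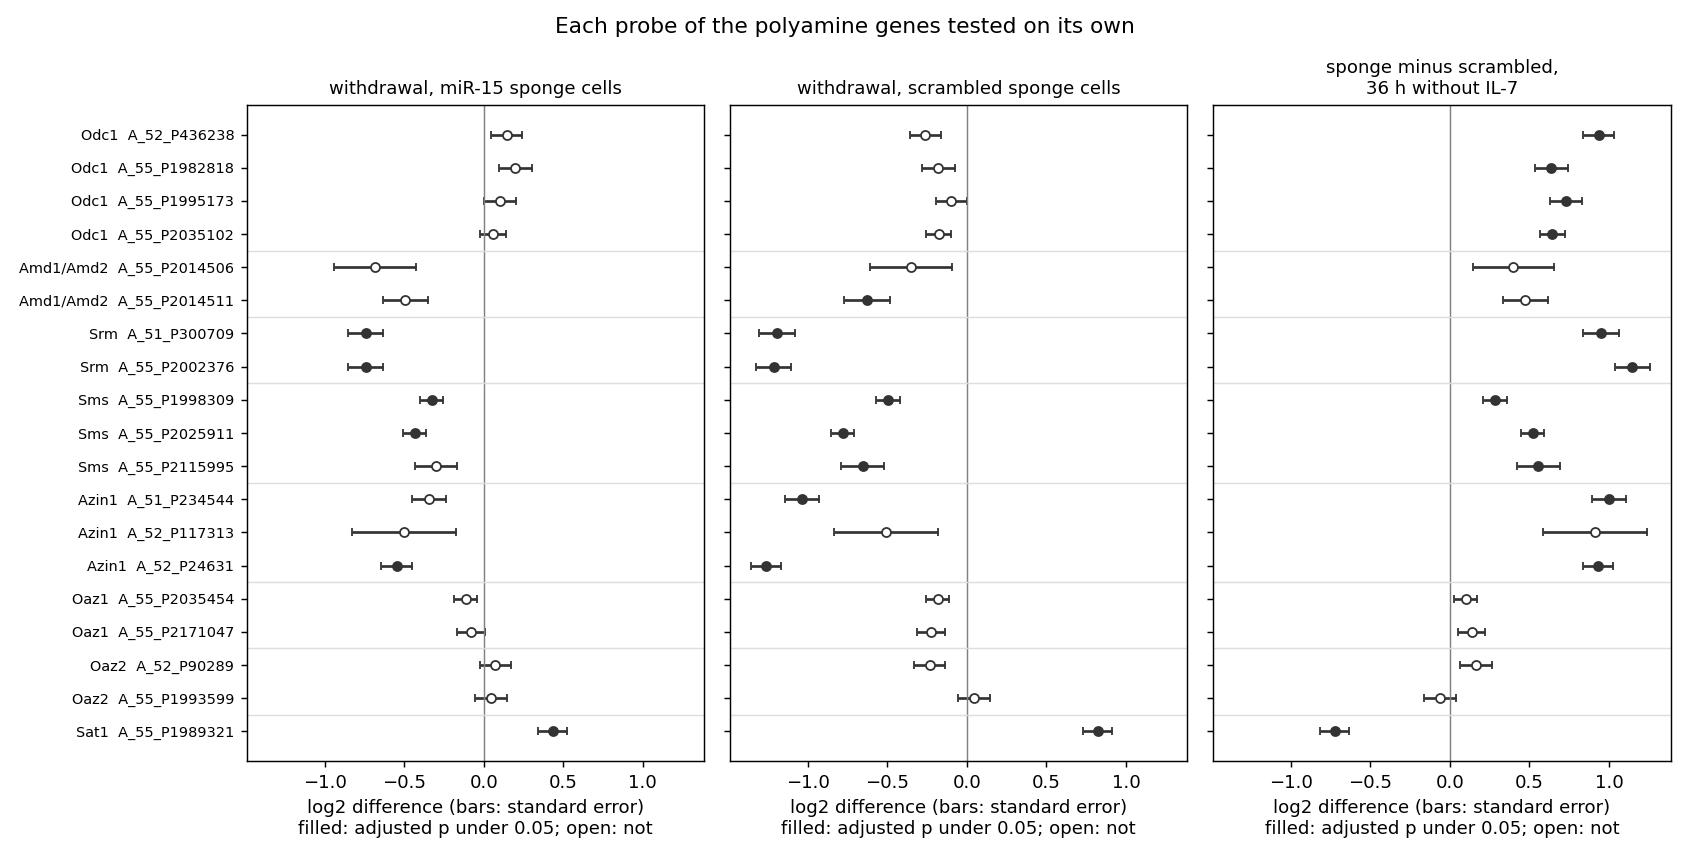
Log2 difference (horizontal axis, with standard errors) of each of the 19 probes after withdrawal in sponge cells and in scrambled cells, and with the sponge 36 h without IL-7, filled where the adjusted p was under 0.05. The 4 Odc1 probes lay at 0.64 to 0.94 in the sponge comparison without IL-7, and 1 of the 2 Amd1/Amd2 probes was called after withdrawal in scrambled cells.

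The directions of the antizymes depended on the scaling of the arrays. With quantile normalization Oaz1 was called higher, by 0.29, after withdrawal in sponge cells (limma, adjusted p = 0.0362), and Oaz2 higher, by 0.41, in scrambled cells (adjusted p = 0.0121). The authors' deposited value table, fitted the same way, gave 0.31 and 0.43. The sign of Odc1 after withdrawal in scrambled cells also turned, between -0.18 and 0.13 over the alternatives, and was called under none of them. The signs of Srm, Sms, Azin1 and Sat1 were the same under every scaling in both withdrawal comparisons and in the sponge comparisons.

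The 31 other genes of the pathway list cover the supply of ornithine, the methionine cycle and salvage, acetylation and oxidation, hypusination and transport. Of these 22 passed the filter. Not tested were Arg1, Arg2 and Otc of the urea cycle, Oaz3, Smox, Satl1, Sat2, Mat1a and Slc12a8, none well above background on both arrays of any group. After withdrawal 8 of the 22 fell and 0 rose in sponge cells, where 15.2% of all genes fell and 7.92% rose. The count in sponge cells became 0 without sponge without IL-7 replicate 1 or sponge with IL-7 replicate 2, and 2 without sponge without IL-7 replicate 2. In scrambled cells 11 fell and 1 rose, where 27.4% of all genes fell and 20.7% rose. The median log2 difference of the 22 was -0.37 in sponge cells, against -0.06 over all genes, and -0.57 in scrambled cells, against -0.02 over all genes.

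Slc7a1, which takes up arginine, ornithine and lysine, and Ahcy, which clears S-adenosylhomocysteine, moved most. Slc7a1 had levels of 3.14 and 3.13 in sponge cells and 1.13 and 0.87 in scrambled cells without IL-7, against 3.80 and 3.83 in sponge cells and 3.14 and 2.88 in scrambled cells with IL-7. It fell by 0.68 ± 0.12 in sponge cells (limma, adjusted p = 0.0154) and by 2.01 ± 0.12 in scrambled cells (adjusted p = 0.000282). Scrambled cells without IL-7 lay below every other group for this transporter.

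Ahcy had levels of 0.12 and 0.07 in sponge cells and -1.36 and -1.91 in scrambled cells without IL-7, against 1.08 and 1.19 in sponge cells and 0.82 and 0.85 in scrambled cells with IL-7. It fell by 1.04 ± 0.18 in sponge cells (limma, adjusted p = 0.0124) and fell by 2.47 ± 0.18 in scrambled cells (adjusted p = 0.000349). All 3 of its probes were called lower in both.

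In the methionine salvage branch, which recycles the by-product of Srm and Sms, Mtap, Apip and Enoph1 fell in both populations, by 0.47 to 0.64 in sponge cells and by 0.84 to 1.09 in scrambled cells. Adi1 and Mri1, of the same branch, were called in neither. Mat2a, which makes S-adenosylmethionine, fell by 0.50 ± 0.07 in scrambled cells (limma, adjusted p = 0.00226). That value was -0.12 and not called under quantile normalization (adjusted p = 0.151). Paox, the oxidase of acetylated polyamines, fell by 0.63 ± 0.11 in sponge cells and 0.71 ± 0.11 in scrambled cells.

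Of the ornithine genes, Oat and the mitochondrial carrier Slc25a15 fell in scrambled cells, by 1.03 ± 0.11 and 1.07 ± 0.13, while in sponge cells they differed by -0.38 and -0.45 and were not called (limma, adjusted p = 0.0548 and 0.0522). Slc25a15 was dim, and its difference in scrambled cells shrank to -0.29 with normexp background correction. Eif5a, the protein that carries the spermidine-derived residue hypusine, fell by 0.57 ± 0.12 in sponge cells and by 0.96 ± 0.12 in scrambled cells. The call of Eif5a in sponge cells was lost with quantile normalization (-0.34, adjusted p = 0.0803), in the deposited table, without the filter, with only those groups in the fit, and in 5 of the 8 fits with 1 array left out, its adjusted p then reaching 0.105. Dhps, which starts that modification, was the gene that rose in scrambled cells, by 0.30 ± 0.08. That call was lost with median scaling (0.22, adjusted p = 0.158), without the filter (adjusted p = 0.0732), with only those groups in the fit (adjusted p = 0.0773), without scrambled without IL-7 replicate 2 (adjusted p = 0.142) and without scrambled with IL-7 replicate 1 (adjusted p = 0.0951). Slc3a2, a partner chain of amino acid transporters, fell by 0.50 ± 0.13 in sponge cells (adjusted p = 0.0439, and 0.0532 with the replicate number as a block) and by 0.64 ± 0.13 in scrambled cells. With 1 array left out, the call of Slc3a2 was made in 2 of 8 fits in sponge cells and in 7 of 8 in scrambled cells. Under the other alternatives it was made in 5 of 12 in sponge cells and in 11 of 12 in scrambled cells, where normexp background correction ended it (-0.43, adjusted p = 0.134). Azin2, alone of its list to be tested, differed by -0.58 and -0.45 and was not called.

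**Figure D5:**
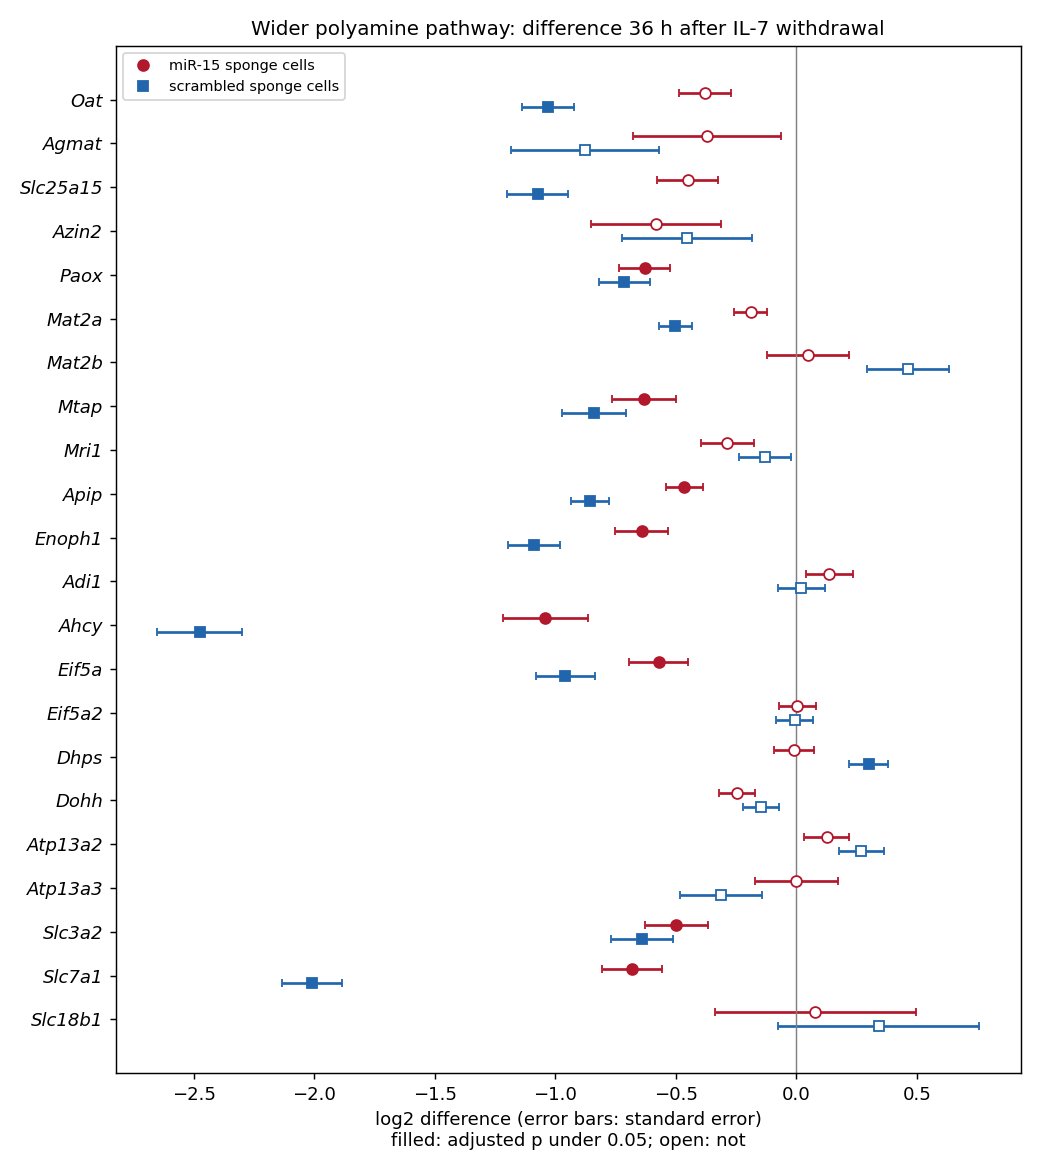
Log2 difference without minus with IL-7 (horizontal axis, with standard errors) for the 22 tested genes of the wider pathway in miR-15 sponge cells (circles) and scrambled cells (squares), filled where the adjusted p was under 0.05. Ahcy and Slc7a1 had the most negative values in scrambled cells, at -2.47 and -2.01.

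In sponge cells without IL-7, 10 of the 22 genes were higher and 2 lower than in scrambled cells, where 16.8% of all genes were higher and 15.3% lower. The count of 12 became 6 to 9 without 1 of the 4 arrays without IL-7. With IL-7, 0 of the 22 were called by limma, where 1.13% of all genes were. An unadjusted limma p under 0.05 was found for 6 of the 22. Such genes were not counted over the whole array, so nothing is read from this count. With a robust, level-dependent spread 6 of the 22 were called, where 1030 of all 21320 genes were. Averaged over both, 11 were higher and 2 lower, where 17.0% of all genes were higher and 14.7% lower. This count of 13 was 8 to 13 with 1 array left out, the lowest without sponge without IL-7 replicate 1 or scrambled without IL-7 replicate 2. The calls of Oat, Mtap and Dohh were each lost in 4 of those 8 fits and that of Eif5a in 5. The higher ones were Slc7a1 (1.47 ± 0.09), Ahcy (1.02 ± 0.13), Slc3a2 (0.56 ± 0.09), Slc25a15 (0.52 ± 0.09), Apip (0.49 ± 0.05), Mat2a (0.44 ± 0.05), Enoph1 (0.43 ± 0.08), Mtap (0.39 ± 0.09), Eif5a (0.38 ± 0.09), Oat (0.33 ± 0.08) and Dohh (0.24 ± 0.05). Dohh, the second enzyme of hypusine formation, differed by -0.14 where its 3 probes were averaged. Each tested alone by limma, these probes ranged from -0.35 to 0.24, with 1 called higher and 1 called lower. Slc25a15 differed by 0.06 with normexp background correction (adjusted p = 0.413). Atp13a2, which exports polyamines from lysosomes, was 0.40 ± 0.07 lower and Dhps 0.21 ± 0.06 lower. The Dhps call was lost in all 8 fits with 1 array left out (adjusted p 0.0604 to 0.132), with median scaling (-0.14, adjusted p = 0.25), without the filter and with probes averaged. Paox differed by 0.22 ± 0.07 (adjusted p = 0.068), and by the same value with the replicate number as a block it was called (adjusted p = 0.0256).

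The withdrawal effect of 2 of the 22 genes differed between the populations, where 4.32% of all genes differed in that direction. The fall of Ahcy was 1.43 ± 0.25 smaller in sponge cells (limma, adjusted p = 0.039) and that of Slc7a1 1.33 ± 0.18 smaller (adjusted p = 0.0306). With the replicate number as a block the adjusted p was 0.0592 and 0.0508, and 0 of all genes were called. Without single arrays Ahcy was lost in 7 of 8 fits and Slc7a1 in 6 of 8, the highest adjusted p being 0.135 and 0.124, reached without sponge without IL-7 replicate 1.

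Myc, the activator of growth genes named above, had levels of -2.02 and -1.93 in sponge cells and -2.96 and -3.07 in scrambled cells without IL-7, against -0.46 and -0.35 in sponge cells and -0.38 and -0.29 in scrambled cells with IL-7. It fell by 1.57 ± 0.09 in sponge cells (limma, adjusted p = 0.00159) and fell by 2.67 ± 0.09 in scrambled cells (adjusted p = 0.000234). Without IL-7 it was 1.04 ± 0.09 higher in sponge cells (adjusted p = 0.00129), and with IL-7 it differed by -0.06 ± 0.09 (adjusted p = 0.689). After withdrawal Myc fell in both populations and Odc1 was called in neither. Any link between the levels of these genes was not tested.

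The motif CACGTG, an E-box of the kind that Myc binds, reads the same on both strands and was searched in RefSeq windows (GRCm38.p6) of 250 bases before to 50 after each start. Of 7 windows of 6 of the genes (Odc1, Sms, Amd1, Sat1, Oaz1 and Oaz2), 1 held it, where 7.15% of all 32851 windows did. Srm and Azin1 were not searched, and sequence farther from a start was not searched for any gene. A window without the motif therefore does not show that the gene lacks it. The match lies 196 bases before an Sms start and is shown with the motif in capitals.
Sms (chrX:157492451-157492510, minus strand): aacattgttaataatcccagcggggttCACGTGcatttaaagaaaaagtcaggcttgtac
A match is a description of these letters and not of binding.

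Among 2682 genes whose level varied by an SD of at least 0.5 over the 8 arrays, those most like Odc1 were Cenpv (Pearson's r 0.986), Jdp2 (0.979), Il31ra (0.977), Glrp1 (0.962) and Misp3 (0.959), and 36 had an r above 0.9. Those most like Sat1 were Camk1d, Lmbrd1, Fcgr2b, Selenop and Ctss (r between 0.995 and 0.997), and 476 had an r above 0.9. These correlations run over 4 groups of 2 arrays and describe which genes share the order of groups of Odc1 or of Sat1, and nothing of function or control.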

How the data were processed

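The authors labelled total RNA of 8 cultures with Cy3 and measured each on its own Agilent array. The deposited scanner tables hold the processed signal as intensity, background subtracted and detrended within each array per the file headers, with mm9 probe positions. Extraction used Agilent Feature Extraction, of which the submitters' processing notes give version 10.7.1.1 but the file headers 10.7.3.1. The deposited value table holds intensity with the same distribution on every array; how it was made is not given in the sources used here.

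Control spots and spots flagged as outliers were left out, log2 signals were set relative to each array's 75th percentile, and the spots of a probe were averaged. A probe was kept (30963 of 55681) if some group had it well above background on both arrays. Genes were named by accession, symbol or synonym through RefSeq, and the kept probe of highest mean over the 8 arrays stood for each gene. Limma 3.58.1 in R 4.3.3 fitted 4 group means (residual degrees of freedom 4, prior 1.81) with 6 contrasts, tests being two-sided and adjusted after Benjamini-Hochberg over 21320 genes in each contrast, called at an adjusted p under 0.05. Single probes were tested in the same way over all kept probes. The procedure was tested on simulated data.

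All arrays lay on 1 slide read in 1 scan, with IL-7 in column 1, without in column 2, and scrambled and sponge cells in different rows, so slide position cannot be told apart from the groups. Replicate numbers mark the 2 experiments with separate clones, per the study's description. Deviations of same-numbered arrays correlated between groups at 0.0178 to 0.131 (Pearson's r over genes), and the number entered as a block only as an alternative.

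The 8 genes, the pathway and marker lists and the rules were chosen with earlier results of these data known. All 8 genes are named. The called genes of the pathway list are named for the withdrawal and averaged sponge comparisons, with Myc, Blnk and the 5 genes most correlated with Odc1 and with Sat1; Agmat, Mat2b, Eif5a2, Atp13a3 and Slc18b1 were tested and not called in these. Alternatives covered background correction, scaling, the deposited table, the filter, flagged spots, the choice of probe, the spread model, the groups in the fit, the block and leaving out each array.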

Additional observations from a re-analysis of the deposited data

Results flagged for a closer look

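No gene of the 8 had a withdrawal effect that differed between sponge and scrambled cells by the test of the difference. In the wider list and its context 3 genes did. The difference, sponge minus scrambled, was 1.43 (log2) for Ahcy, with withdrawal effects of -1.04 in sponge cells and -2.47 in scrambled cells. It was 1.33 for Slc7a1, with -0.68 in sponge cells and -2.01 in scrambled cells, and 1.10 for Myc (limma, adjusted p = 0.0306), with -1.57 in sponge cells and -2.67 in scrambled cells. For Myc the adjusted p was 0.0508 with the replicate number as a block and up to 0.124 with 1 array left out. Groups of 2 arrays are too small for a search for single outlying samples.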

How the results depend on the processing

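Of 560 values of the 8 genes over 48 differences and the alternatives that kept all arrays, 518 kept their direction and side of the threshold, 17 lost and 23 gained a call, and 2 turned: Oaz1 after withdrawal in sponge cells was called higher with quantile normalization (0.29) and in the deposited table (0.31). In the wider list Dohh turned to -0.14 for the averaged sponge effect when probes were averaged. The number of the 8 genes called for withdrawal in sponge cells, 3, was 1 with median scaling, without the filter and with only those 2 groups in the fit, and 0 to 4 with an array left out (0 without sponge with IL-7 replicate 2). For the sponge with IL-7 the 0 became 1 with normexp or with probes above background on all 8 arrays and 2 with the robust spread, and 0 to 2 with an array left out. For the difference between withdrawal effects it became 1 (Azin1) with normexp, quantile normalization, the deposited table, probes above background on all 8 arrays, the robust spread or every probe tested, and stayed at 0 with an array left out. Leaving out an array gave 4 to 5 of the 8 for withdrawal in scrambled cells and for the sponge without IL-7, and 4 to 6 for the averaged sponge. The replicate block changed no call of the 8 genes.

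Over all genes, the 1124 called for the difference between withdrawal effects became 0 with the replicate block or without the filter, 1716 with probes above background on all 8 arrays and 2369 with the robust spread, and 0 to 1616 with an array left out. The 241 for the sponge with IL-7 became 402 with normexp, 138 with median scaling, 82 without the filter, 432 with probes above background on all 8 arrays, 1030 with the robust spread, 4 with only those 2 groups, 151 with the replicate block, and 38 to 1360 with an array left out. The 4939 for withdrawal in sponge cells became 2644 without the filter and 1738 to 5141 with an array left out. Leaving out an array also gave 6770 to 10356 for withdrawal in scrambled cells (10251), 3416 to 7447 for the sponge without IL-7 (6843) and 4151 to 7925 for the averaged sponge (6761). In the wider list, the 8 called for withdrawal in sponge cells became 5 without the filter and 0 to 8 with an array left out, and the 13 for the averaged sponge became 8 without the filter. The 2 for the difference became 4 with quantile normalization or the deposited table, 5 with the robust spread and 0 with the block or without the filter.

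Scaling moved the share of calls that were higher. For withdrawal in sponge cells it was 34.2%, against 51.2% with quantile normalization, 51.5% in the deposited table and 49.1% with the percentile taken over probes above background on all arrays. For withdrawal in scrambled cells it was 43.1%, against 55.5% with that percentile. For the sponge without IL-7 it was 52.2%, against 69.0% with median scaling and 40.8% with that percentile. Averaged over both it was 53.6%, against 68.1% and 41.0%. The median of all genes shifted by 0.11 for the sponge without IL-7 under median scaling and by 0.12 for withdrawal in scrambled cells under that percentile. The size of small differences such as those of Sms and Oaz1 thus depends on the scaling. Single genes could move further than the median of all genes. Quantile normalization shifted that median by 0.06 for withdrawal in either population, less than it moved Oaz1, Oaz2 and Mat2a in the values given above.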
